A study of Mus musculus with 4 samples.

Results

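The genes that build, load and edit MHC class II molecules were compared in sorted cells of mouse skin wounds, CD301b macrophages against immune cells negative for F4/80. They are the 10 genes H2-Aa, H2-Ab1, H2-Eb1, H2-Eb2, H2-DMa, H2-DMb1, H2-DMb2, H2-Oa, H2-Ob and Cd74, taken by symbol from a table of 24358 gene symbols. They have 11 of its 34535 transcripts, 1 each and 2 for Cd74. CD301b-positive macrophages, with 2 libraries, were set against immune cells lacking the macrophage surface protein F4/80, also with 2 libraries. Both were sorted from wound beds in the dermis on day 5, from male C57/Bl6 mice of 7 weeks. The labels name no transgene, deletion or drug in either population, and give neither the sort gates nor whether animals were pooled.

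The table gives 1 FPKM (fragments mapped to a transcript, per kilobase of its length and per total mapped) for each transcript in each population. No spread between libraries can therefore be given, the depth of the libraries is unknown, and no test could be run beyond the one deposited. Differences were judged by p-values from Cuffdiff, as the authors' deposited table gives them, adjusted by the Benjamini-Hochberg method over all tested transcripts. A gene was called lower or higher when at least 1 of its transcripts had an adjusted p of at most 0.05. No transcript past that threshold could go the other way, and the summed FPKM had to go the same way. The transcript of CD301b itself, Mgl2, went against the label of the sort, at 49.2 FPKM in CD301b macrophages and 103 FPKM in F4/80-negative cells. Adgre1, which encodes F4/80, was 557 FPKM in CD301b macrophages and still 151 FPKM in F4/80-negative cells. All 10 macrophage markers examined were higher in CD301b macrophages, led by Cd163 (4.89-fold), Adgre1 (3.69-fold) and the complement genes C1qa, C1qb and C1qc (3.60-fold, 3.33-fold and 3.08-fold), with summed levels of 7656 FPKM there and 2644 FPKM in F4/80-negative cells. Over all tested genes, 11.0% were called higher. In such sorted bulk samples, fewer cells of a type and less RNA per cell cannot be told apart.

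MHC class II molecules display peptides from engulfed proteins to CD4 T cells. An alpha and a beta chain pair in the endoplasmic reticulum with the invariant chain CD74, which plugs the peptide groove and carries the complex to endosomes. There cathepsins cut CD74 down to a short remnant, the editor H2-DM exchanges that remnant for antigen peptides, and H2-DO restrains H2-DM. Dendritic cells and B cells make class II genes constitutively, and macrophages raise them after interferon gamma. C57BL/6 mice carry a broken H2-Ea gene, so that they make I-A but no I-E molecules at the surface although H2-Eb1 is transcribed.

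All 10 class II genes were lower in CD301b macrophages and none was higher. Across the 13039 tested genes, 6.20% were called lower and 11.0% higher. The median log2 difference (CD301b macrophages minus F4/80-negative cells, on the log2(FPKM + 1) scale) was -0.99 over the class II genes and 0.05 over all tested genes. Folds ran from 1.58 to 7.14, with a median of 1.99. Summed over the 10 genes, the level was 8926 FPKM in CD301b macrophages and 15450 FPKM in F4/80-negative cells, which is 1.62% and 2.97% of all FPKM in each population. Of the 205 tested genes that reached 500 FPKM in either population, 16 were lower, and 4 of these 16 were class II genes.

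**Figure D1:**
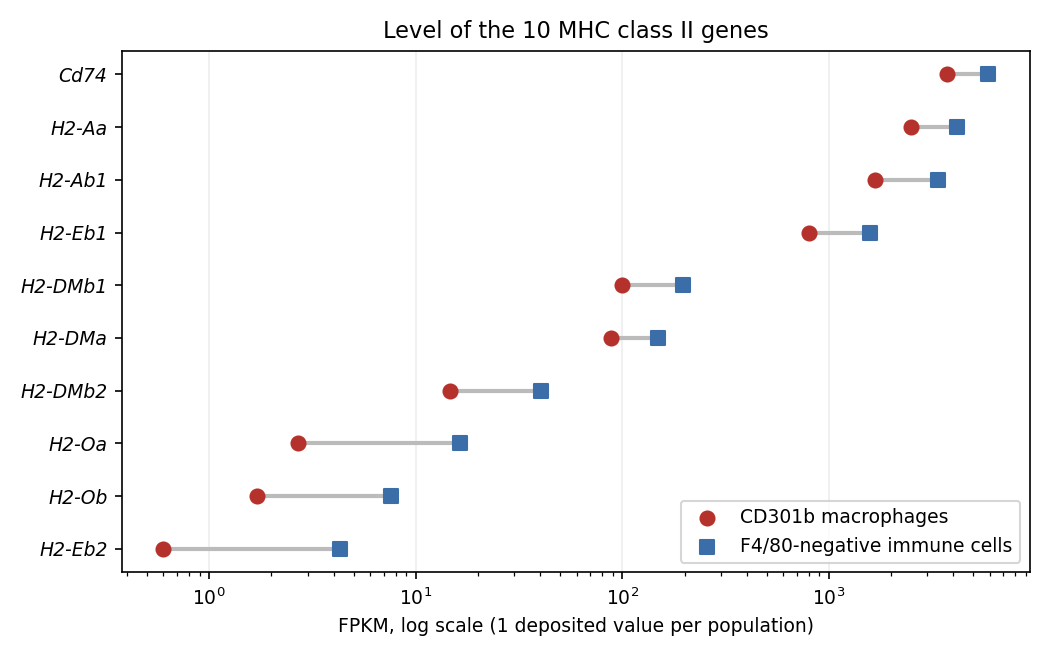
Deposited FPKM of each class II gene (x axis, log scale) in CD301b macrophages (circles) and cells negative for F4/80 (squares), 1 value per population and no error. The circle lies left of the square for all 10 genes, and the distance is widest for H2-Eb2, H2-Oa and H2-Ob, the genes at the bottom.

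The classical chains form the peptide-binding molecule itself and were abundant in both populations. H2-Aa, the I-A alpha chain, was 2497 FPKM in CD301b macrophages and 4170 FPKM in F4/80-negative cells, 1.67-fold lower (adjusted p = 0.0151 from the authors' deposited table). H2-Ab1, the I-A beta chain, was 1676 FPKM in CD301b macrophages and 3370 FPKM in F4/80-negative cells, 2.01-fold lower. H2-Eb1, the I-E beta chain, was 799 FPKM in CD301b macrophages and 1572 FPKM in F4/80-negative cells, 1.97-fold lower. Both chains of I-A were thus lower together. Their balance in CD301b macrophages was 1.49 H2-Aa FPKM per H2-Ab1 FPKM, and in F4/80-negative cells it was 1.24. Among all symbols ranked by FPKM, H2-Aa stood at position 16 in CD301b macrophages and 7 in F4/80-negative cells. H2-Ab1 stood at position 37 in CD301b macrophages and 9 in F4/80-negative cells. H2-Eb2, a second E beta gene with little known function, was 0.599 FPKM in CD301b macrophages and 4.28 FPKM in F4/80-negative cells. Its 7.14-fold difference had the largest size among the 10 genes. H2-Ea-ps, the broken E alpha gene, was under 1 FPKM in both populations (0.0717 FPKM in CD301b macrophages and 0.128 FPKM in F4/80-negative cells) and was not tested.

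Levels of H2-DM, the peptide editor, were lower by amounts like those of the classical chains, except for the second beta gene. H2-DMa, its alpha chain, was 88.2 FPKM in CD301b macrophages and 149 FPKM in F4/80-negative cells, 1.69-fold lower (adjusted p = 0.00182 from the authors' deposited table). H2-DMb1, the main beta chain, was 100.1 FPKM in CD301b macrophages and 197 FPKM in F4/80-negative cells, 1.97-fold lower. H2-DMb2, a close copy of H2-DMb1 that lies next to it, was 14.6 FPKM in CD301b macrophages and 40.5 FPKM in F4/80-negative cells, 2.76-fold lower. H2-DMb2 therefore made up a smaller part of the beta pool in CD301b macrophages, with 0.146 FPKM per H2-DMb1 FPKM there and 0.205 in F4/80-negative cells. The copies share sequence: 26.8% of the 50-base words in the H2-DMb2 transcript also occur in that of H2-DMb1. How the authors assigned such reads is not stated in the labels, so the division between the H2-DMb genes is uncertain.

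The genes of H2-DO, the inhibitor of H2-DM, were low in both populations and showed far larger folds. H2-Oa, its alpha chain, was 2.68 FPKM in CD301b macrophages and 16.3 FPKM in F4/80-negative cells, 6.11-fold lower. H2-Ob, its beta chain, was 1.71 FPKM in CD301b macrophages and 7.57 FPKM in F4/80-negative cells, 4.43-fold lower. RNA of the inhibitor genes was thus lower relative to RNA of the genes of its target. Summed DO transcripts were 2.16% of summed DM transcripts in CD301b macrophages and 6.18% in F4/80-negative cells, a 2.86-fold smaller ratio. With alpha chains alone this ratio was 3.62-fold smaller, and with beta chains alone 2.14-fold smaller. No value per library exists, so the difference between these ratios has no test. The H2-Oa locus overlaps the antisense RNA BC051537, which is listed at 0 in both populations. The labels do not state whether counting used strand, so reads of this pair, and those of H2-Eb1 and the antisense gene Gm20513 over its start, may not be told apart.

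Of the 10 genes, 7 had an adjusted p of 0.000999, the smallest that the authors' deposited table allows: H2-Ab1, H2-Eb1, H2-Eb2, H2-DMb1, H2-DMb2, H2-Oa and H2-Ob. The size of the fold followed the level. The 4 genes under 100 FPKM in both populations were at least 2.76-fold lower, and the 6 genes above 100 FPKM in F4/80-negative cells were at most 2.01-fold lower. Over the 10 genes, Spearman's rho between the mean log2 FPKM and the log2 FPKM ratio was 0.88. This is a description over genes of the same libraries, in which the level and the ratio share both values. The log2(FPKM + 1) scale shrinks the differences of low genes, so that H2-Oa comes before H2-Eb2 on it despite a smaller fold. On that scale, 11 of the 808 genes called lower had a more negative log2 difference than H2-Oa. The corresponding numbers were 24 for H2-Eb2, 27 for H2-Ob and 59 for H2-DMb2, while 499 had a more negative one than Cd74.

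**Figure D2:**
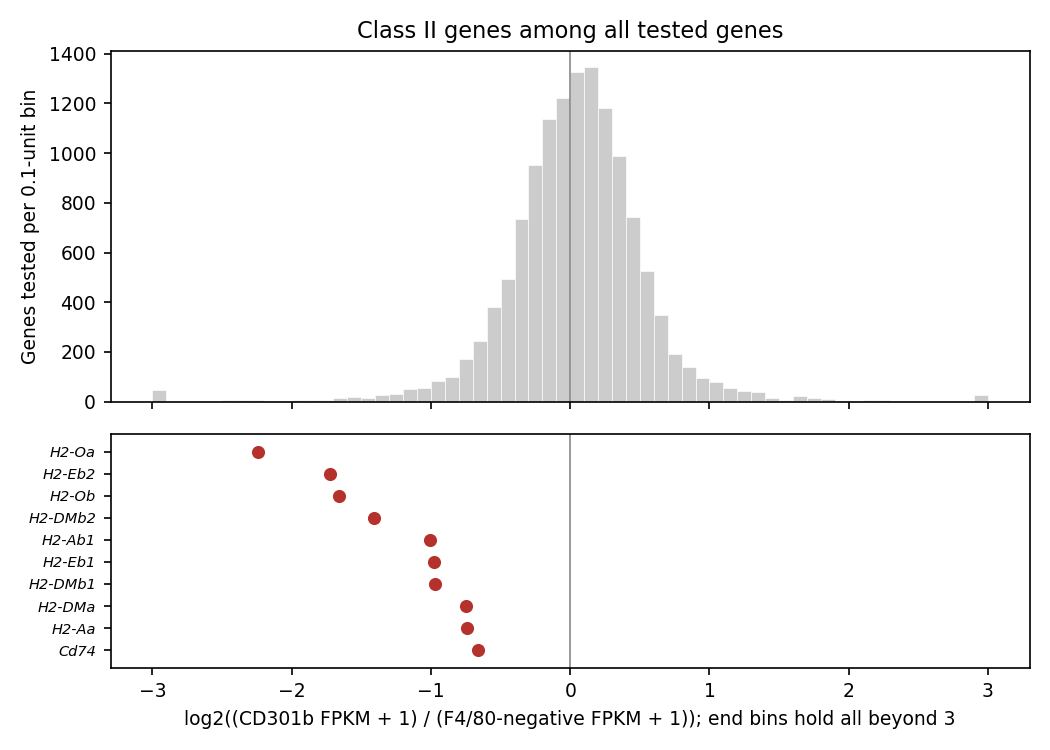
Upper panel: number of tested genes per bin of the log2 difference on the log2(FPKM + 1) scale (CD301b macrophages over F4/80-negative cells), with the end bins holding all genes beyond them. Lower panel: the 10 class II genes on the same axis, which run from -2.24 (H2-Oa) to -0.66 (Cd74), all left of 0.

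The invariant chain was the most abundant of the 10 genes. Cd74 (NCBI gene 16149, chromosome 18, 60803849 to 60812652, plus strand, GRCm38) was 3746 FPKM in CD301b macrophages and 5922 FPKM in F4/80-negative cells, 1.58-fold lower. It stood at position 8 among all symbols in CD301b macrophages and 4 in F4/80-negative cells. Its fold was the smallest of the 10, so that CD301b macrophages held 2.24 Cd74 FPKM per H2-Ab1 FPKM and F4/80-negative cells 1.76. Measured against the I-A alpha chain H2-Aa, this ratio was nearly level, at 1.50 in CD301b macrophages and 1.42 in F4/80-negative cells.

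Cd74 is made in a short and a long form, which differ by 1 exon. The long form carries an added thyroglobulin-like domain that is known to bind cathepsin L. In the GENCODE annotation the long transcript has 9 exons and encodes 279 residues, and the short one has 8 exons and encodes 215 residues, a difference of 64 residues. The short transcript was 2825 FPKM in CD301b macrophages and 4621 FPKM in F4/80-negative cells, 1.64-fold lower (adjusted p = 0.0175 from the authors' deposited table). The long transcript was 921 FPKM in CD301b macrophages and 1302 FPKM in F4/80-negative cells, 1.41-fold apart, and did not pass the threshold (adjusted p = 0.099 from the authors' deposited table). The call of the gene thus rested on the short form. The long form was 24.6% of summed Cd74 FPKM in CD301b macrophages and 22.0% in F4/80-negative cells, a difference of 2.61 percentage points that has no test. That 1 form passed and the other did not does not show that they differ. The forms share 95.4% of the 50-base words of the short transcript, so their separate levels rest on the reads that tell them apart.

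**Figure D3:**
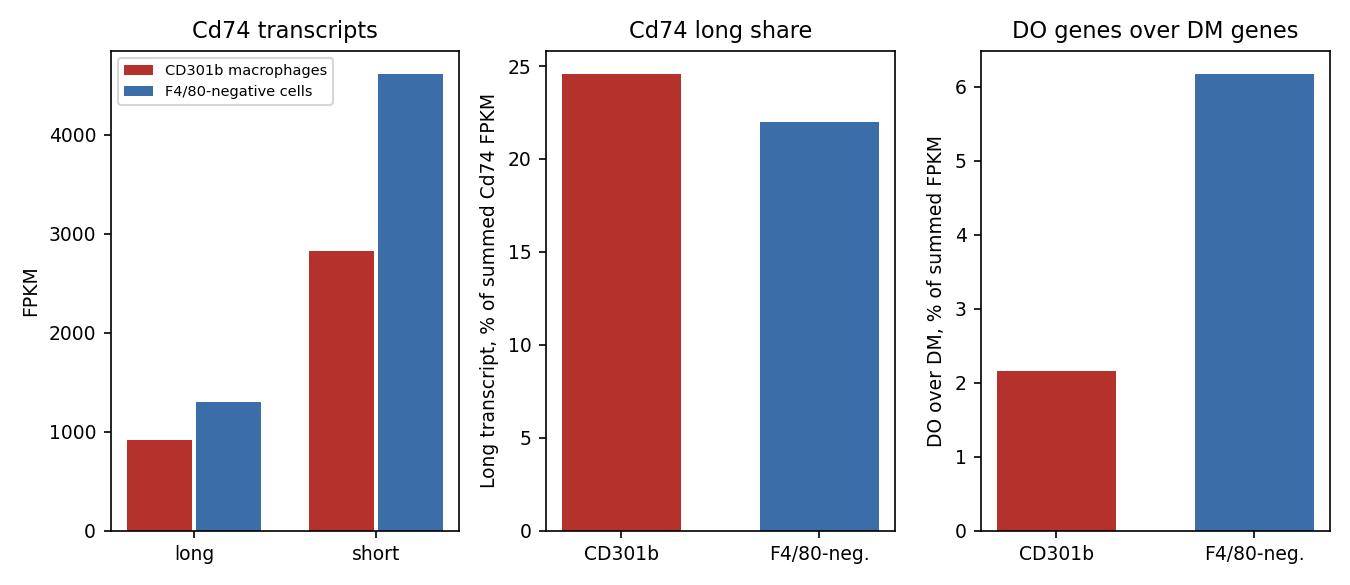
Left: FPKM of the long and short Cd74 transcripts in CD301b macrophages (red) and F4/80-negative cells (blue). Middle: the long transcript as a percentage of summed Cd74 FPKM, 24.6% in CD301b macrophages and 22.0% in F4/80-negative cells. Right: summed FPKM of H2-Oa and H2-Ob as a percentage of that of H2-DMa, H2-DMb1 and H2-DMb2, 2.16% in CD301b macrophages and 6.18% in F4/80-negative cells. All bars are single deposited values without error.

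Apart from Cd74, the class II genes sit in 1 stretch of chromosome 17 (34083843 to 34341410 on GRCm38, 257.6 kb). This stretch also holds genes of the class I pathway, which allowed class II genes to be compared with their immediate neighbours. In order along the chromosome, the class II genes are H2-Oa (NCBI gene 15001), H2-DMa (14998), H2-DMb2 (15000), H2-DMb1 (14999), H2-Ob (15002), H2-Ab1 (14961), H2-Aa (14960), H2-Eb1 (14969) and H2-Eb2 (381091). All but H2-Aa lie on the plus strand. Between H2-DMb1 and H2-Ob lie Psmb9 and Psmb8, subunits of the immunoproteasome, and Tap1 and Tap2, which form the peptide transporter for class I. All 9 class II genes of the stretch were lower, with FPKM ratios from 0.140 to 0.599. None of the 5 other tested genes was called in either direction by the adjusted Cuffdiff p-values, and their ratios ran from 0.881 to 1.20. Over all tested genes, 6.20% were called lower and 11.0% higher, so having no call is usual for so few genes. Of these 5, 2 had a transcript with an unadjusted p under 0.05, Brd2 and Tap1.

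Psmb9 was 47.9 FPKM in CD301b macrophages and 39.9 FPKM in F4/80-negative cells, and Psmb8 was 119 FPKM in CD301b macrophages and 135 FPKM in F4/80-negative cells. Tap1 was 53.6 FPKM in CD301b macrophages and 57.4 FPKM in F4/80-negative cells, and Tap2 was 20.0 FPKM in CD301b macrophages and 22.3 FPKM in F4/80-negative cells. The Tap1 transcript with the small unadjusted p was a minor one that went up, at 4.99 FPKM in CD301b macrophages and 2.71 FPKM in F4/80-negative cells. The main Tap1 transcript was 48.7 FPKM in CD301b macrophages and 54.7 FPKM in F4/80-negative cells. Brd2, a chromatin reader that lies head to head with H2-DMa, was 66.8 FPKM in CD301b macrophages and 71.6 FPKM in F4/80-negative cells. Its sum joins opposed transcripts, a coding one at 41.8 FPKM in CD301b macrophages and 29.8 FPKM in F4/80-negative cells, and a noncoding one at 25.1 FPKM and 41.5 FPKM in the same populations. Neither passed the threshold. Just beyond H2-Eb2, the butyrophilin-like gene Btnl2, singled out after its values were seen, was 2.31 FPKM in CD301b macrophages and 0.761 FPKM in F4/80-negative cells, 3.04-fold higher (adjusted p = 0.00182 from the authors' deposited table). On the other side, the class I gene H2-K1 was 986 FPKM in CD301b macrophages and 831 FPKM in F4/80-negative cells and was not past the threshold.

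**Figure D4:**
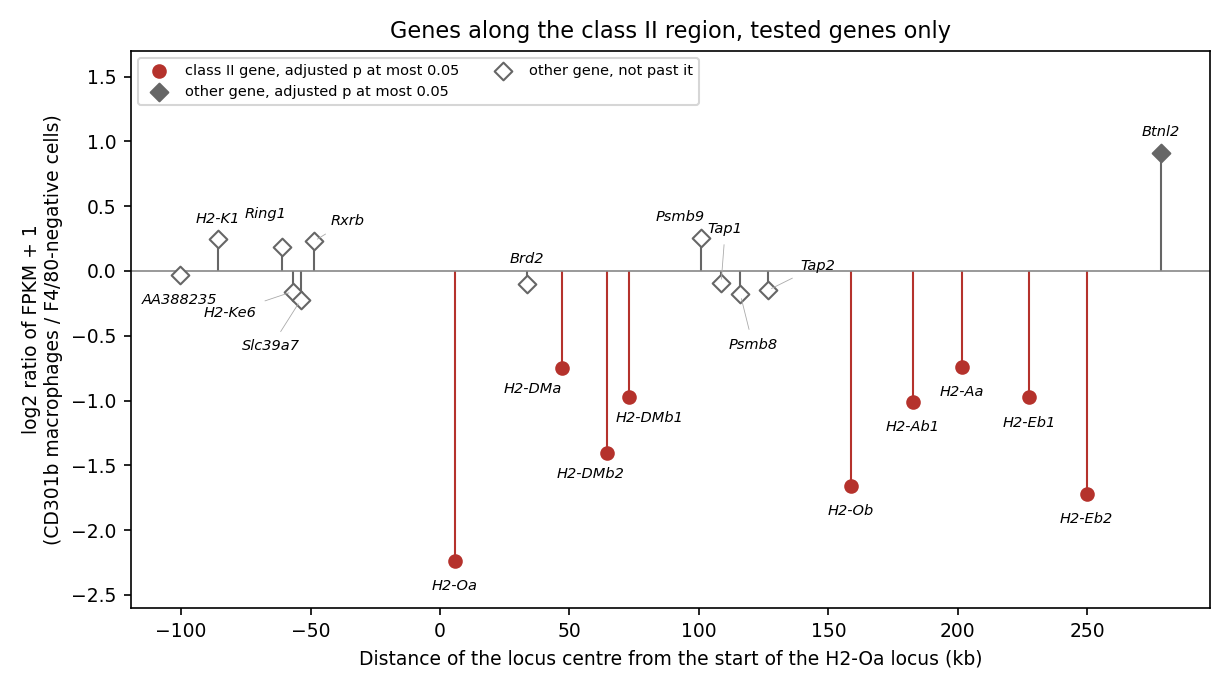
Log2 difference on the log2(FPKM + 1) scale (y axis, CD301b macrophages over F4/80-negative cells) of each tested gene in and within 100 kb of the class II stretch, by distance from the start of the H2-Oa locus (x axis, kb). Circles are class II genes, diamonds are other genes, and filled symbols passed an adjusted p of 0.05. Every class II gene lies below 0, while Brd2, Psmb9, Tap1, Psmb8 and Tap2 between them lie near 0.

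Class II promoters are known for a shared module, the X box bound by the RFX complex and the Y box bound by NF-Y, on which the coactivator CIITA assembles. The promoters were searched for the core letters AAC of the X box followed, after 24 to 30 bases, by the Y box letters ATTGG. The search covered the 250 bases before the RefSeq start on both strands, and its letters were chosen after the promoter sequences had been seen. RefSeq promoters on GRCm38.p6 were listed for 8 of the 10 genes and not for H2-Ab1 and Cd74. Of these 8 genes, with 9 promoters, 7 held the pair and H2-DMa did not. Of all 32851 promoters, counted singly and not by gene, 3.49% held it. Because the letters were taken from these same class II promoters, these shares are a description and no test of enrichment. Of the 6 other genes of the stretch, 5 had a listed promoter, and 0 of those 5 held the pair. ATTGG alone was in 33.8% of all promoters on either strand. The stretches are shown with AAC and ATTGG in capitals, each 5′ to 3′ on the strand of its gene.
H2-Oa, chr17:34092297-34092344, plus strand: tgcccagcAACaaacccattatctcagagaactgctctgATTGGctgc
H2-DMb2, chr17:34145120-34145167, plus strand: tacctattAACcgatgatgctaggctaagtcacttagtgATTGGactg
H2-DMb1, chr17:34153091-34153138, plus strand: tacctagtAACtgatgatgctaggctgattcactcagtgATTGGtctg
H2-Ob, chr17:34238812-34238856, plus strand: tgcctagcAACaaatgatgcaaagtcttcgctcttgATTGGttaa
H2-Aa, chr17:34287863-34287910, minus strand: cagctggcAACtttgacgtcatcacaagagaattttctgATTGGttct
H2-Eb1, chr17:34305770-34305816, plus strand: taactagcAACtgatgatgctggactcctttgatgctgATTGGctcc
H2-Eb2, chr17:34325537-34325583, plus strand: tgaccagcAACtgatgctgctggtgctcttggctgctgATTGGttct

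The gap between the capitals was 25 bases in H2-Ob, 27 in H2-Eb1 and H2-Eb2 and 28 in the other 4 genes, and AAC began 74 to 130 bases before the start. H2-Oa held 2 overlapping pairs, of which 1 is shown. The H2-DMb1 and H2-DMb2 stretches were identical at 42 of 48 bases. H2-Oa and H2-Aa held the pair at similar distances from the start. A match of these letters describes the sequence and shows no binding. Whether the pair bears on the folds was not tested.

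Genes of the class II transcription machinery were examined next. Of 17 tested, 2 were lower, 1 was higher and 14 stayed without a call, where 6.20% of all tested genes were lower and 11.0% higher. Their median log2 difference was 0.09, against 0.05 over all tested genes. Irf4, a transcription factor of dendritic cells and alternatively activated macrophages, was 7.34 FPKM in CD301b macrophages and 15.3 FPKM in F4/80-negative cells, 2.08-fold lower. Jak2, a kinase of the interferon gamma receptor, was 20.9 FPKM in CD301b macrophages and 46.1 FPKM in F4/80-negative cells, 2.21-fold lower. Spi1, the myeloid factor PU.1, was 159 FPKM in CD301b macrophages and 151 FPKM in F4/80-negative cells and was not past the threshold. Ciita, the class II coactivator, was singled out after its values were seen: it was 7.52 FPKM in CD301b macrophages and 9.69 FPKM in F4/80-negative cells, with a smallest adjusted p of 0.399 over 4 tested transcripts in the authors' deposited table.

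Genes that cut antigen and the invariant chain, or control that cutting, were mostly higher in CD301b macrophages or without a call. Of 13 genes, 7 were higher, 1 was lower and 5 stayed without a call. Their median log2 difference was 0.71. Over all tested genes the median was 0.05, and 6.20% were called lower and 11.0% higher. Lgmn, the asparagine endopeptidase legumain, was 1791 FPKM in CD301b macrophages and 771 FPKM in F4/80-negative cells, 2.32-fold higher. Ctsc, the dipeptidyl peptidase cathepsin C, was 674 FPKM in CD301b macrophages and 270 FPKM in F4/80-negative cells, 2.50-fold higher. The lysosomal proteases Ctsb and Ctsd were 2.88-fold and 2.24-fold higher. Cst7, the inhibitor cystatin F, was the lower member, at 2.97 FPKM in CD301b macrophages and 8.92 FPKM in F4/80-negative cells. Ctss, cathepsin S, which makes the last cuts in CD74 in dendritic cells, was 2509 FPKM in CD301b macrophages and 1871 FPKM in F4/80-negative cells and was not past the threshold.

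Of 12 genes of class II turnover and endosomal traffic, 6 were higher, 1 was lower and 5 stayed without a call. Their median log2 difference was 0.59. Over all tested genes the median was 0.05, and 6.20% were called lower and 11.0% higher. March1, the ubiquitin ligase that marks surface class II for degradation, was 25.3 FPKM in CD301b macrophages and 8.38 FPKM in F4/80-negative cells, 3.01-fold higher. March1 RNA per H2-Ab1 RNA was 0.0151 in CD301b macrophages and 0.00249 in F4/80-negative cells, a 6.06-fold higher ratio. Cd37, a tetraspanin of antigen-presenting cells, measured 89.3 FPKM in CD301b macrophages and 42.6 FPKM in F4/80-negative cells, 2.10-fold higher. Ap2m1, an adaptor subunit of clathrin-coated pits, was 1.82-fold higher, and Lamp1, a lysosomal membrane protein, 2.20-fold higher. Cd9, a tetraspanin that clusters class II, was the lower member, at 133 FPKM in CD301b macrophages and 295 FPKM in F4/80-negative cells. Cd63, a late endosomal tetraspanin, was 616 FPKM in CD301b macrophages and 494 FPKM in F4/80-negative cells and did not pass.

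None of 5 genes for the CD74 ligand Mif and related partners was called by the adjusted Cuffdiff p-values, with 1 at an unadjusted p under 0.05. Most tested genes had no call, with 6.20% lower and 11.0% higher. The most abundant, Cd44, the signalling partner of CD74, was 187 FPKM in CD301b macrophages and 218 FPKM in F4/80-negative cells. Cd4, which encodes the T cell coreceptor that binds class II and is also made by some macrophages, was 18.6 FPKM in CD301b macrophages and 4.92 FPKM in F4/80-negative cells, 3.78-fold higher. Lag3, another class II receptor, was 5.50 FPKM in CD301b macrophages and 4.95 FPKM in F4/80-negative cells and was not past the threshold.

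MHC class I genes were examined beside class II. Of 17 genes of class I and its loading, none was lower by the adjusted Cuffdiff p-values, 3 were higher and 14 stayed without a call. Their median log2 difference was 0.06. Over all tested genes the median was 0.05, and 6.20% were called lower and 11.0% higher. The class I counts thus lie near the shares over all genes. The 3 were Erap1, which trims peptides in the endoplasmic reticulum (1.65-fold), the chaperone Canx (1.57-fold) and the loading factor Tapbp (1.31-fold). B2m, the shared light chain of class I, was 2959 FPKM in CD301b macrophages and 2081 FPKM in F4/80-negative cells and was not past the threshold. The classical class II chains H2-Aa, H2-Ab1 and H2-Eb1 together held 2.14 FPKM per FPKM of the class I chains H2-K1 and H2-D1 in CD301b macrophages, and 4.93 in F4/80-negative cells. The difference between these ratios has no test.

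**Figure D5:**
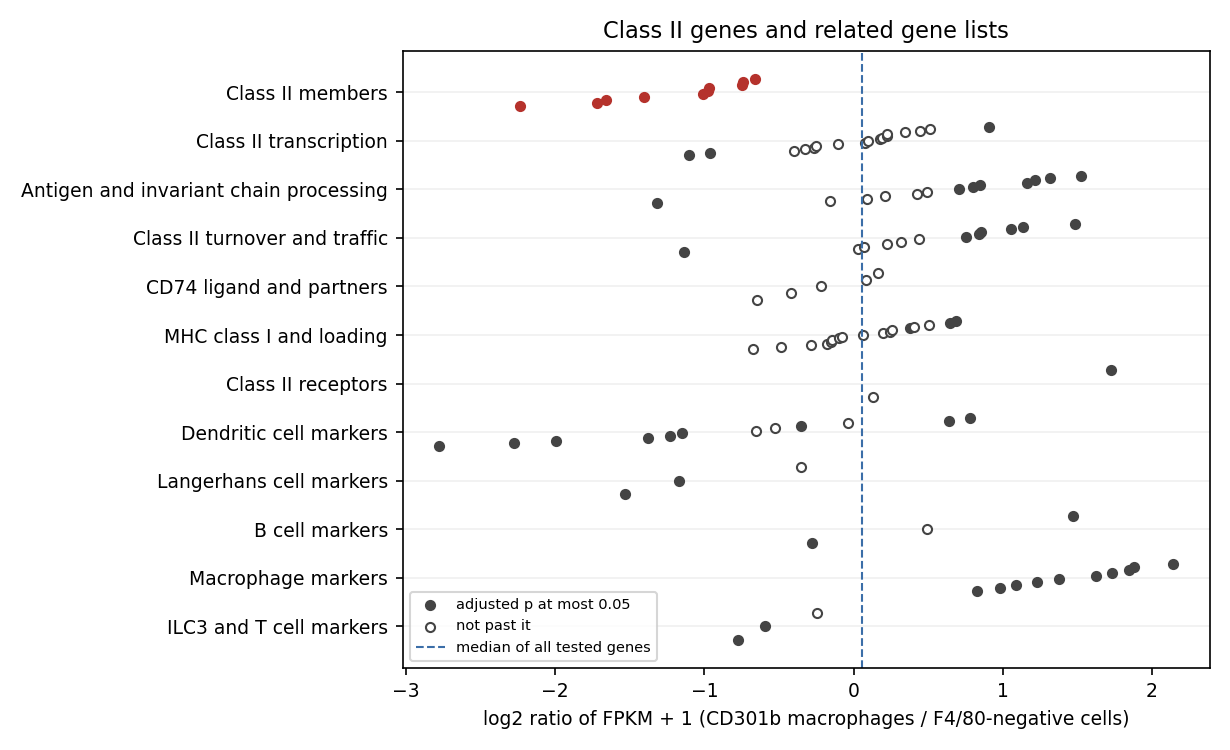
Log2 difference on the log2(FPKM + 1) scale (x axis, CD301b macrophages over F4/80-negative cells) of each tested gene in the class II genes (red) and related lists (grey), 1 point per gene. Filled points passed an adjusted p of 0.05, and the dashed line is the median of all tested genes. The class II genes lie left of the line, while 7 of 13 processing genes and 6 of 12 turnover genes are filled on its right. Over all tested genes, 11.0% were called higher.

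Markers of other cells known for class II were read beside these differences. Of 12 dendritic cell markers, 7 were lower, 3 stayed without a call and 2 were higher, namely Sirpa and Clec10a. Over all tested genes, 6.20% were called lower and 11.0% higher. Ccr7 was 8.39 FPKM in CD301b macrophages and 63.4 FPKM in F4/80-negative cells, Flt3 was 2.56 FPKM in CD301b macrophages and 16.3 FPKM in F4/80-negative cells, and Cd209a was 18.4 FPKM in CD301b macrophages and 76.6 FPKM in F4/80-negative cells. Ccr7, Flt3 and Cd209a were thus 7.56-fold, 6.36-fold and 4.15-fold lower. The 3 markers without a call, Clec9a, Batf3 and Kmo, were 2.98-fold, 1.51-fold and 1.03-fold lower. Levels were very low for Clec9a, at 0.408 FPKM in CD301b macrophages and 1.22 FPKM in F4/80-negative cells. Xcr1, counted among the 7 lower markers, was 0.278 FPKM in CD301b macrophages and 0.631 FPKM in F4/80-negative cells. Itgax and Dpp4 were 2.67-fold and 2.49-fold lower, and Kmo was 10.3 FPKM in CD301b macrophages and 10.6 FPKM in F4/80-negative cells. The summed level of the 12 markers was 575 FPKM in CD301b macrophages and 561 FPKM in F4/80-negative cells, and most of it came from Sirpa and Clec10a. None of the 12 was at 0 in either population.

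Of 3 Langerhans cell markers, Epcam and Cdh1 were lower, where 6.20% of all tested genes were lower and 11.0% higher. Epcam was 3.51-fold lower. The other was Cdh1, E-cadherin, at 2.52 FPKM in CD301b macrophages and 9.19 FPKM in F4/80-negative cells. Cd207, langerin, was 1.49 FPKM in CD301b macrophages and 2.17 FPKM in F4/80-negative cells and did not pass, and the list summed to 5.01 FPKM in CD301b macrophages and 14.9 FPKM in F4/80-negative cells. B cell markers, a class of cells known for H2-DO, were close to 0: 6 of 9 were under 1 FPKM in both populations. Of the 3 tested, Cd79b was higher (18.0 FPKM in CD301b macrophages and 5.88 FPKM in F4/80-negative cells), Ebf1 was lower (2.44 FPKM in CD301b macrophages and 3.17 FPKM in F4/80-negative cells), and Blnk was 39.8 FPKM in CD301b macrophages and 27.9 FPKM in F4/80-negative cells without passing. The 9 B cell markers summed to 60.9 FPKM in CD301b macrophages and 37.8 FPKM in F4/80-negative cells. Of 5 markers of T and innate lymphoid cells, 3 were tested and 2 were lower. Il7r was 9.40 FPKM in CD301b macrophages and 16.8 FPKM in F4/80-negative cells, Il2ra was 1.04 FPKM in CD301b macrophages and 2.08 FPKM in F4/80-negative cells, and the list summed to 12.2 FPKM in CD301b macrophages and 21.1 FPKM in F4/80-negative cells. Epcam, Ebf1 and Il2ra were named after their values were seen. The part of dendritic cells, Langerhans cells and lymphocytes in the class II differences was not tested.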

How the data were processed

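RNA was sequenced from Illumina TruSeq mRNA libraries, 2 per population, per the labels' protocols. TopHat2 2.0.2, Cuffdiff 2.0.2 and the build mm9 are listed, without roles, in the submitters' processing notes. The authors deposited 1 table, with an FPKM per transcript and population and an unadjusted p-value whose lowest value was 5e-05. Adjusting that p-value over the 16921 tested transcripts at 0.05 gave the table's own 2408 calls. How libraries were combined and whether strand was used are not stated there.

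Loci of 99.2% of accessions found in RefSeq overlapped their gene on GRCm38, so positions are GRCm38, counted from 1. FPKM was summed by symbol. March1, turned into a date by a spreadsheet, was recovered by accession. Log2 differences used a pseudocount of 1 FPKM. Fold changes use FPKM without it. Because nothing says that the libraries came from separate animals, the p-values may measure technical spread. Words of 50 bases, exons and coding lengths came from GENCODE M21.

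Members and lists were chosen with earlier results of these data known. Named were all members, genes lying between them, up to 5 called genes per list at 5 FPKM or more by size of difference, and its most abundant uncalled gene. Some genes that this rule names are not reported here. Python 3.11.15, numpy 2.4.6 and pandas 2.3.3 were used.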

Additional observations from a re-analysis of the deposited data

How the results depend on the processing

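No paired analysis was possible because the table gives 1 value per population and none per library, and for the same reason no library could be left out. All 10 class II genes had lower FPKM in CD301b macrophages under each of the 5 alternatives to the calls. This direction could hardly have changed, since stricter thresholds keep the FPKM and median scaling reduced that of CD301b macrophages. All 10 were called lower after median scaling, with the most abundant transcript of each gene, and with transcripts at 1 FPKM or more. These settings could hardly have changed the calls, because they keep the deposited p-values. Median scaling multiplied the CD301b macrophage FPKM by 0.935. Only Cd74 has more than 1 transcript, and its most abundant one is the short form that passed. H2-Eb2 reached 1 FPKM only in F4/80-negative cells, where it is higher. At an adjusted p of 0.01, 8 were called, without H2-Aa and Cd74. The share of all tested genes called at that stricter threshold is not given here. Under a Bonferroni adjustment 0 were called, since the smallest deposited p of 5e-05 cannot pass it over 16921 transcripts. The other genes of the class II stretch gave 0 calls under all 5, where most tested genes have no call and stricter thresholds could add none. The median log2 difference was -0.993 with a pseudocount of 0.1, -0.994 without one, -1.09 after median scaling and -1.07 after scaling both populations to an equal sum. The ratio of DO to DM in CD301b macrophages was 0.0216, with 0.0233 without H2-DMb2, 0.0303 from alpha chains and 0.0149 from beta chains. In F4/80-negative cells it was 0.0618, with 0.069, 0.11 and 0.0318 under the same choices. Cd74 per class II chain was 1.50 with H2-Aa and 4.69 with H2-Eb1 in CD301b macrophages, and 1.42 and 3.77 in F4/80-negative cells. Weighted by length, the long Cd74 form was 27.3% in CD301b macrophages and 24.5% in F4/80-negative cells. CD301b macrophages stayed on the same side of F4/80-negative cells in each ratio and share. Depth is unknown, so counting error cannot be set beside H2-Eb2, H2-Ob and H2-Oa, the lowest genes.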

Other observations

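March8, a ligase related to March1, was 15.6 FPKM in CD301b macrophages and 8.23 FPKM in F4/80-negative cells and was also higher (adjusted p = 0.000999 by Cuffdiff, from the authors' deposited table), while Cd83, a dendritic cell protein known to oppose March1, was 278 FPKM in CD301b macrophages and 273 FPKM in F4/80-negative cells and did not pass. The 4 tested Ciita transcripts had FPKM ratios between 0.542 and 1.18 (CD301b macrophages over F4/80-negative cells), and none passed the threshold. Cst3, cystatin C, was 1087 FPKM in CD301b macrophages and 1020 FPKM in F4/80-negative cells and did not pass, unlike the lower cystatin Cst7. These genes were chosen after their values were seen.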
